A study of Mus musculus with 24 samples.

Results

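The unstressed condition of a mouse RNA sequencing series on the nucleus accumbens was described across all genes. Its members were the 6 libraries labelled as wild-type controls, 3 from females and 3 from males, out of 24 libraries in 8 groups, and they were pooled as 1 condition. All 6 came from C57BL/6J mice of wild-type genotype, with no virus and no stress, and the labels give no age. For every library the mRNA of 4 mice was pooled (RNA integrity number above 8.0, Illumina mRNA kit). The labels call the 3 libraries of a sex independent biological replicates; n is therefore the number of libraries, and differences between single mice are averaged within a pool. The other groups of the series, stressed mice and mice with a floxed gene, were not compared with these libraries.

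The nucleus accumbens is the ventral part of the striatum and takes part in reward, motivation and the response to stress. Most of its neurons are medium spiny neurons, inhibitory projection cells that carry either the dopamine D1 receptor with substance P and dynorphin (the direct pathway type) or the dopamine D2 receptor with enkephalin (the indirect pathway type). The remaining cells are interneurons, astrocytes, oligodendrocytes and their precursors, microglia and vascular cells. For the tissue punches, the protocol mentions dorsal striatum as well as nucleus accumbens.

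The libraries held 9034244 to 12145551 counts. Levels within a gene are given in CPM, counts scaled by library size and TMM factor, and levels compared between genes are given in TPM, which also divide each count by the length of the gene's merged exons. A gene with 3 counts stood at 0.251 to 0.320 CPM, depending on the library. Of 37991 genes in the table, 27654 had a count in at least 1 library and 10337 had none.

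Several libraries stood apart before any gene was considered. Genes of high GC content were raised and genes of low GC content lowered in control female library 1, and the reverse held in control female library 3. The median log2 deviation of the fifth of genes with the highest GC content minus that of the fifth with the lowest was 0.62 in control female library 1, 0.34 in control male library 1 and -0.63 in control female library 3. The other three libraries lay between -0.21 and -0.04. Control female libraries 1 and 3 held the highest value of the 6 for 30.4% and 27.3% of the 9892 genes with a mean of at least 10 CPM. They also held the lowest value for 29.3% and 27.0% of these genes. Control male library 1 held the highest value for 17.4% and the lowest for 14.1%. The part of GC content in these shares was not tested. The log2 levels of these libraries were also the least correlated pair (Pearson r = 0.963 across genes, which are not independent replicates), while the closest pair reached 0.989. The source of this deviation was not tested.

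**Figure D1:**
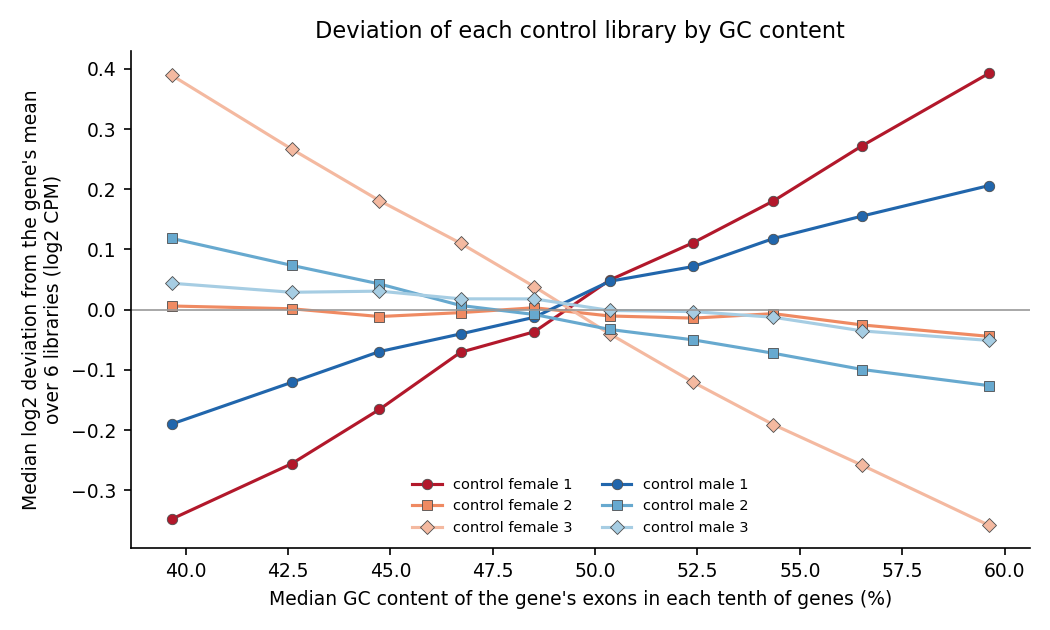
Median log2 deviation of each control library from the gene's mean over 6 libraries (vertical axis, log2 CPM) for 10 equal bins of genes ordered by exon GC content (horizontal axis, median GC content in percent). Lines are libraries; control female library 1 rises from -0.35 to 0.39 and control female library 3 falls from 0.39 to -0.36, while control female library 2 stays between -0.04 and 0.01.

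The transcriptome was broad. A total of 13718 genes reached 1 CPM in all 6 libraries, 12852 of them protein-coding, and 9106 reached 10 CPM, 1782 reached 100 CPM and 59 reached 1000 CPM in all 6. The 10 most abundant genes took 5.60% to 7.11% of the counts of a library, the 100 most abundant 18.1% to 20.1%, and the 1000 most abundant 49.9% to 52.7%. It took 868 to 1005 genes to hold 50% of the counts of a library, the fewest in control female library 1 and the most in control male library 2. Nuclear protein-coding genes held 90.1% to 92.7% of counts, and long non-coding RNAs 0.929% to 1.73%.

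Per length, the nuclear protein-coding genes spread over more than 4 orders of magnitude. Of 20217 such genes, 58 stood at 1000 TPM or more and held 10.8% to 13.1% of the nuclear coding TPM, and 1535 stood between 100 and 1000 TPM and held 46.7% to 48.2%. A further 7768 genes between 10 and 100 TPM held 36.2% to 39.5%. Below these, 4419 genes lay between 1 and 10 TPM, 4495 had a lower level, and 1942 had no count in any of the 6 libraries. The genes at 1000 TPM or more had a median of 2740 bases of merged exons and a median GC content of 54.6%, against 4744 bases and 49.7% for the genes between 10 and 100 TPM.

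The mitochondrial genome encodes subunits of the respiratory chain and the RNAs needed to translate them. Its genes took 5.50% to 7.09% of the counts of a library and 21.03% to 27.6% of the TPM. The most abundant was mt-Co1, a subunit of cytochrome c oxidase, at 34780 ± 3584 TPM (mean ± SD, n = 6), followed by mt-Cytb at 32180 ± 5995 TPM, mt-Co3 at 27570 ± 7186 TPM, mt-Co2 at 24110 ± 839 TPM and mt-Nd4 at 21840 ± 3532 TPM. The first 2 of these differed by less than the SD of mt-Cytb. At the other end mt-Nd4l, a short gene that adjoins mt-Nd4, stood at 0.833 ± 0.659 TPM. Mt-Atp8 and mt-Atp6, which overlap each other, varied most among the mitochondrial protein genes that stood at 100 CPM or more, with coefficients of variation (CV, SD over mean of CPM) of 68.2% and 58.8%. How the deposited counts treat reads shared by overlapping genes was not tested.

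Among nuclear genes, the largest counts belonged to long neuronal and glial transcripts. Meg3, a maternally expressed long non-coding RNA, came first at 4979 ± 1055 CPM. Others at the top were Slc1a2, the main astrocytic glutamate transporter, at 3402 ± 564 CPM, Ndrg4 at 2671 ± 366 CPM and Malat1, a nuclear-retained non-coding RNA, at 2388 ± 1062 CPM. The 15 highest by mean CPM also held Camk2a, Arf3, Cplx2, Map1a, Kif5a, Mbp, Eef1a1, Hsp90ab1 and Cpe, which encode synaptic kinase, vesicle release, microtubule and motor, myelin, translation, chaperone and peptide processing proteins. CPM grows with transcript length, and Meg3, Slc1a2, Map1a and Mbp had the longest merged exons of these 15 genes, at 8469 to 18090 bases.

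Per length, a neuropeptide gene came first. Penk, the precursor of the enkephalins, stood at 3800 ± 948 TPM and ranked first of all nuclear genes. Its level was 3306 TPM in the lowest library, 3369 TPM in the median and 5716 TPM in the highest. The highest value was that of control female library 1, and the other 5 libraries lay between 3306 and 3679 TPM. Without that library the mean was 3417 ± 149 TPM, and its rank was still 1. Within single libraries Penk was first in 4 of 6, behind Calm2 in control female library 3 and behind Ttr, a choroid plexus gene, in control male library 3. Calm2, a calmodulin gene, followed at 3087 ± 364 TPM, then the translation factor Eef1a1 at 2835 ± 185 TPM, the peptide-processing enzyme Cpe at 2500 ± 486 TPM and the protease inhibitor Cst3 at 2402 ± 430 TPM. Neighbouring genes in this order differed by less than the larger of their SDs. The 15 highest per length also held Hsp90ab1, Apoe, Psap, Ndrg4, Ttr, Calm3, Itm2c, Arf3 and Selenow, at 1760 to 2262 TPM. Of these Ttr, the transthyretin carrier made by choroid plexus, varied by far the most, as described with that tissue.

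**Figure D2:**
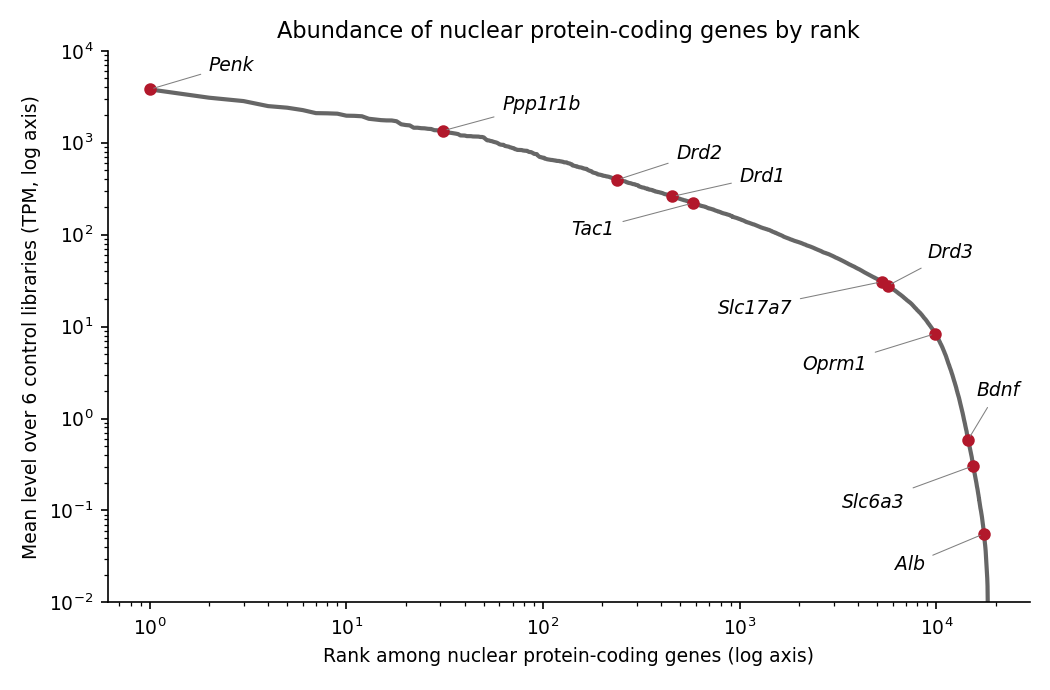
Mean level of each nuclear protein-coding gene over 6 control libraries (vertical axis, TPM, log axis) against its rank (horizontal axis, log axis). Penk is first at 3800 TPM, the other markers of medium spiny neurons lie between 221 and 1349 TPM, and Alb, a liver gene, lies at 0.0558 TPM.

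The 5 markers of medium spiny neurons were set beside genes of other organs. All 5 markers were far above these genes: of the 12 genes of photoreceptors, muscle and liver, the highest was Rcvrn at 2.72 ± 1.67 TPM. That comparison cannot tell nucleus accumbens from dorsal striatum, which the protocol also mentions. Ppp1r1b, which encodes the dopamine-regulated phosphatase inhibitor DARPP-32, stood at 1096 TPM in the lowest library, 1289 TPM in the median and 1829 TPM in the highest. Control female library 1 was highest and control female library 2 lowest. Drd2, the D2 receptor gene, stood at 286, 407 and 486 TPM in the lowest, median and highest library. Control female library 3 was lowest and control female library 1 highest. Drd1, the D1 receptor gene, stood at 207, 265 and 303 TPM. Here the order was turned, with control female library 1 lowest and control female library 3 highest. Tac1, the precursor of substance P, stood at 167, 225 and 265 TPM. As for Drd1, its 3 higher libraries were control female library 3 and control male libraries 1 and 2.

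The ratio of Drd2 to Drd1 within a library ranged from 0.946 to 2.35 with a median of 1.42. It lay below 1 in control female library 3 alone, and the 3 male libraries lay between 1.38 and 1.46. Among the female libraries the ratio was 2.35 where high-GC genes were raised and 0.946 where they were lowered. In control female library 2, with a GC contrast of only -0.04, it was 1.94. Control male libraries 1 and 2, with GC contrasts of 0.34 and -0.21, had the same ratio of 1.38. Exon GC content was 55.0% for Drd2 and 46.0% for Drd1. With the median deviation of each of 10 GC bins of genes removed from each library, an alternative chosen after the data were seen, the ratio ranged from 1.17 to 1.98 and exceeded 1 in all 6 libraries. In the same step the CV of CPM fell from 25.5% to 12.9% for Ppp1r1b and from 19.3% to 11.1% for Drd2, while it moved from 29.6% to 24.3% for Penk, from 15.1% to 13.7% for Drd1 and from 19.8% to 20.6% for Tac1. With the longest transcript as length, the mean level was 211 TPM for Drd1, 305 TPM for Tac1 and 316 TPM for Drd2, so the order of Drd1 and Tac1 depended on the length used.

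The promoter windows of the direct pathway markers Drd1 and Tac1, whose levels were high in the same 3 libraries, are shown with that of Drd2, whose level ran the other way between control female libraries 1 and 3. Each window holds 250 bases before and 50 after the most upstream start that RefSeq gives (build GRCm38.p6), 5′ to 3′ on the gene's strand. The capitals mark CG dinucleotides, the site of DNA methylation.
Drd1, chr13:54055609-54055908, minus strand: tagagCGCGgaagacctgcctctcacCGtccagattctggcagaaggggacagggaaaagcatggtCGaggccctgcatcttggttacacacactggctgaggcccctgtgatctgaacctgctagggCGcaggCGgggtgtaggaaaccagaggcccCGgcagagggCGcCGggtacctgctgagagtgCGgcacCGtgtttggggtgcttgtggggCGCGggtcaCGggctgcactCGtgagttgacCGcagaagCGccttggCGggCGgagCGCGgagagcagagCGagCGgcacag
Tac1, chr6:7554811-7555110, plus strand: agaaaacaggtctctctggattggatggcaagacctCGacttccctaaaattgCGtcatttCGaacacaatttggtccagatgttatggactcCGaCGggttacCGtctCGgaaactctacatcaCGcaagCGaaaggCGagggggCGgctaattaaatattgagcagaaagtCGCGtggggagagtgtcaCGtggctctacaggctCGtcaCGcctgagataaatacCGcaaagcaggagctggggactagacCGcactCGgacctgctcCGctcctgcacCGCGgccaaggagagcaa
Drd2, chr9:49340153-49340452, plus strand: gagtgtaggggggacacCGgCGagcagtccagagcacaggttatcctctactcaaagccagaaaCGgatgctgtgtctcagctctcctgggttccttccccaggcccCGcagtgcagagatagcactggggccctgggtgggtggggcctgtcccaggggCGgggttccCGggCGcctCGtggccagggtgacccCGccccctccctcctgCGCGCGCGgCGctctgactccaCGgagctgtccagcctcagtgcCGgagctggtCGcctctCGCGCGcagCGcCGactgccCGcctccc
The windows held 23, 22 and 23 CG dinucleotides. For comparison, 1 window was kept for each of 27025 gene symbols, that of the most upstream start, as 4163 symbols had more than 1. Over these windows the median was 7 and the quartiles were 3 and 20, and 21.6% held 23 or more. The letters TATAAA were found on neither strand of the 3 printed windows and in 14.2% of the 27025 windows. A promoter window was found for 78.9% of the 20217 nuclear protein-coding genes, fewer than the 80% needed for a check across genes, so no relation of CG number to level was computed.

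Genes shared by both medium spiny neuron types were abundant, and their summed level varied little. All 25 genes of this list reached 1 CPM in all 6 libraries, and together they held 14450 to 16520 CPM, a 1.14-fold range. Single members varied about as much as other genes, with a median CV of 13.9% against 15.1% for all genes of at least 10 CPM. High members beside Ppp1r1b were Gng7, a G protein subunit, at 1140 ± 204 TPM, Adcy5, the main striatal adenylyl cyclase, at 872 ± 147 TPM and Pde1b, a phosphodiesterase, at 802 ± 120 TPM. The lowest was Sh3rf2 at 35.6 ± 2.92 TPM. The 9 direct pathway genes held 795 to 1132 CPM, led per length by Pdyn, the dynorphin precursor, at 380 ± 43.7 TPM. The 7 indirect pathway genes that the table holds summed to 3436 CPM in control female library 1 and to 1911 to 2335 CPM in the other 5, and Penk alone made up 71.5% of the sum. In such bulk samples, fewer cells of a type and less RNA per cell cannot be told apart.

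Neuropeptide precursors set the striatum's chemical signature, and their levels differed over 4 orders of magnitude. Of 28 listed, 17 reached 1 CPM in all 6 libraries. After Penk came Sst, the somatostatin gene of a class of interneurons, at 1059 ± 310 TPM, Scg2, a granin of secretory vesicles, at 905 ± 148 TPM, Npy, neuropeptide Y, at 382 ± 105 TPM and Pdyn at 380 ± 43.7 TPM. Npy and Pdyn did not differ beyond their spread. Sst ranged from 657 TPM in control female library 3 to 1543 TPM in control female library 1. Most peptides best known from the hypothalamus were low. Agrp, Avp, Hcrt, Oxt and Pmch had means of 0.0479 to 0.387 CPM, Gal and Grp means of 0.195 and 0.188 CPM, and Adcyap1 stood at 0.539 CPM. Pomc, Crh and Trh stood at 3.23 ± 1.18, 8.96 ± 2.08 and 10.2 ± 3.02 TPM, which cannot be set directly against these CPM values. Pmch, melanin-concentrating hormone, was the lowest per length at 0.235 ± 0.260 TPM.

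**Figure D3:**
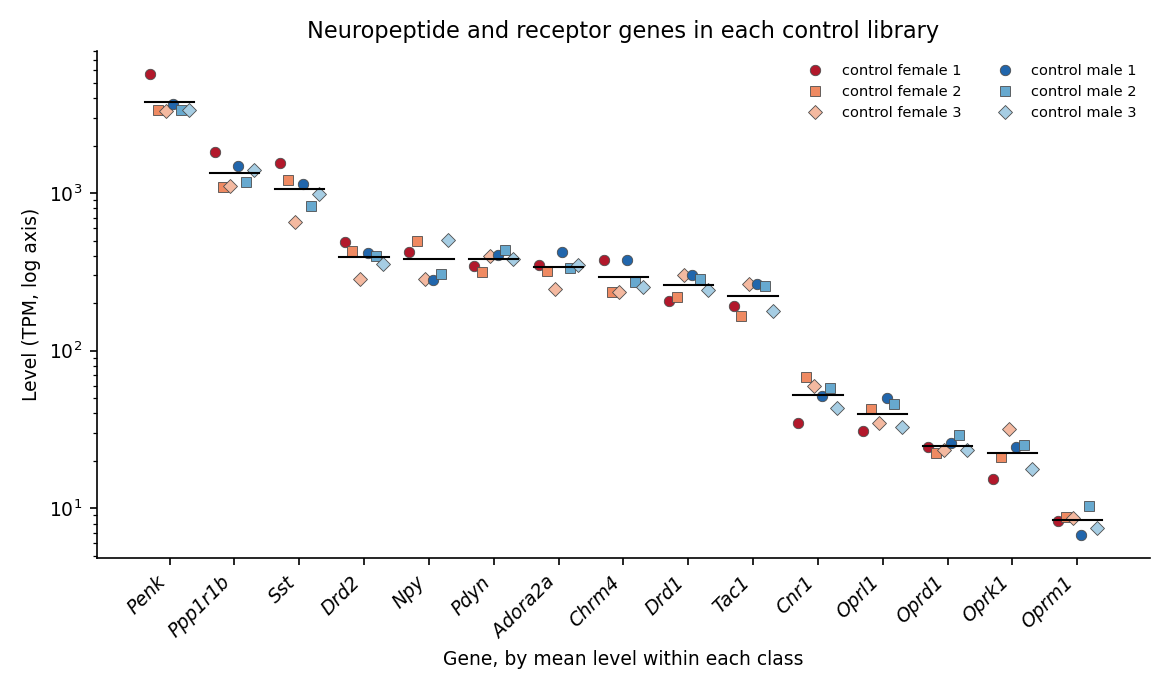
Level of neuropeptide, signalling and receptor genes (vertical axis, TPM, log axis) in each control library (points) with the mean over 6 libraries (black bars). Penk is highest in control female library 1, and Drd2 and Drd1 lie in opposite order in control female libraries 1 and 3.

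Levels of dopamine genes were uneven, both among the receptors and among the genes of dopamine neurons. Maob and Maoa, which break dopamine down, stood at 37.9 ± 4.90 and 31.0 ± 5.14 TPM. The other dopamine receptors were far below Drd1 and Drd2: Drd3 stood at 27.8 ± 4.06 TPM, 7.41 to 13.5 times below Drd1 in the same library, and Drd5 at 2.08 ± 0.425 TPM. Drd4 had a mean of 0.336 CPM. Slc6a3, the dopamine transporter that marks midbrain dopamine cells, was lowest at 0.306 ± 0.236 TPM, whereas Th, the rate-limiting enzyme of dopamine synthesis, stood at 17.4 ± 3.79 TPM.

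The 7 listed receptors for opioids and cannabinoids summed to 190 to 262 CPM. Cnr1, the cannabinoid CB1 receptor, was highest at 52.6 ± 12.1 TPM, followed by Oprl1, the nociceptin receptor, at 39.5 ± 7.75 TPM, the delta receptor Oprd1 at 24.8 ± 2.47 TPM, the kappa receptor Oprk1 at 22.6 ± 5.89 TPM and the mu receptor Oprm1 at 8.38 ± 1.21 TPM. Oprd1 and Oprk1 did not differ beyond their spread. Oprk1 was highest in control female library 3 at 31.7 TPM and lowest in control female library 1 at 15.3 TPM, as for Drd1. The immune cannabinoid receptor Cnr2 stood at 0.327 ± 0.229 TPM.

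Muscarinic and serotonin receptors each had a clear leader. Chrm4, the inhibitory muscarinic receptor of direct pathway neurons, stood at 293 ± 66.9 TPM and Chrm1 at 107 ± 23.5 TPM, ahead of the nicotinic subunits Chrnb2 at 35.5 ± 2.104 TPM and Chrna4 at 18.1 ± 4.58 TPM. The nicotinic subunits Chrna5, Chrna6 and Chrnb3 had means of 0.358, 0.206 and 0.201 CPM. Among 12 serotonin receptors Htr2c was first at 74.2 ± 13.8 TPM and took 62.3% of the list's summed CPM. The next were Htr6 at 18.9 ± 3.64 TPM and Htr1d at 17.8 ± 1.84 TPM, which did not differ beyond their spread.

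The 21 genes of GABA synthesis, transport and reception summed to 5336 to 5787 CPM, a 1.08-fold range, while the median CV of single members was 14.1%. Gabbr1, a GABA-B receptor subunit, stood at 587 ± 38.7 TPM, the GABA-synthesizing enzymes Gad2 and Gad1 at 527 ± 66.3 and 273 ± 29.3 TPM, and the vesicular transporter Slc32a1 at 405 ± 66.5 TPM. Gabra6, the receptor subunit of cerebellar granule cells, was lowest at 0.0286 ± 0.0702 TPM.

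Ionotropic glutamate receptors, which receive the cortical and other excitatory input, summed to 3168 to 3519 CPM over 18 genes. The AMPA receptor subunit Gria1 led at 472 ± 10.6 TPM and ranged only from 456 to 484 TPM. Gria2, the subunit that makes AMPA receptors impermeable to calcium, stood at 126, 193 and 255 TPM in the lowest, median and highest library, lowest in control female library 1 and highest in control female library 3. Its ratio to Gria1 ran from 0.276 to 0.529. Grin1, the obligatory NMDA receptor subunit, had the reverse order, from 91.3 TPM in control female library 3 to 212 TPM in control female library 1. Exon GC content was 36.8% for Gria2 and 59.4% for Grin1, and removing the GC deviation lowered their CV of CPM from 21.8% to 5.65% and from 35.6% to 16.9%. Among metabotropic receptors Grm3 stood at 205 ± 19.5 TPM and Grm5 at 169 ± 30.4 TPM, and Grm6, a receptor of retinal bipolar cells, at 0.118 ± 0.290 TPM.

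Genes of the synapse were high on both sides of it. The 25 vesicle release genes summed to 12340 to 15490 CPM and were led per length by the complexins Cplx2 and Cplx1 at 1557 ± 220 and 833 ± 154 TPM, followed by Vamp2 at 831 ± 144 TPM and Snap25 at 757 ± 78.9 TPM. The 14 calmodulin and CaM kinase genes summed to 11150 to 12710 CPM, with Camk2a at 1196 ± 122 TPM. The ratio of Camk2a to Camk2b was 1.79 to 2.71. The 16 scaffold genes of the postsynaptic density summed to 4012 to 5823 CPM, and the highest per length were Baiap2 at 411 ± 72.8 TPM, Dlgap3 at 294 ± 47.9 TPM and Dlg4 (PSD-95) at 293 ± 48.6 TPM.

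Glial lists differed in summed level and in spread. The highest library exceeded the lowest 1.11-fold for astrocyte genes and 1.26-fold for myelinating oligodendrocyte genes. For precursor and microglial genes it did so 1.24-fold and 1.32-fold. The 15 astrocyte genes held 7861 to 8757 CPM. Apoe, a lipid carrier, led per length with 1424, 1897 and 3014 TPM in the lowest, median and highest library, and the highest libraries were control female library 1 and control male library 1. Removing the GC deviation lowered its CV from 34.1% to 16.8%. The list did not move as a whole: 4 of its 15 members were highest and 7 lowest in control female library 1, among the latter Slc1a2 at 692 TPM. Glul, glutamine synthetase, stood at 1179 ± 87.2 TPM and Gfap, the filament gene of reactive and white matter astrocytes, was lowest at 29.1 ± 4.99 TPM. The 15 genes of myelinating oligodendrocytes held 4470 to 5612 CPM, with Mbp, a myelin protein gene, at 835 ± 155 TPM. Mbp was highest in control female library 1 at 1087 TPM and lowest in control female library 3 at 609 TPM. Oligodendrocyte precursor genes held 568 to 704 CPM, microglial genes 445 to 589 CPM, led by the complement gene C1qb at 154 ± 36.0 TPM, and endothelial and mural genes 459 to 523 CPM, led by the pericyte gene Rgs5 at 84.0 ± 11.7 TPM.

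Interneuron markers, apart from Sst and Npy, were low. The list of 15 genes held 476 to 758 CPM. Nos1, made by the Sst and Npy class, stood at 49.1 ± 5.03 TPM, Calb2 at 33.4 ± 8.83 TPM and Slc5a7, the choline transporter of cholinergic interneurons, at 28.7 ± 7.50 TPM. Vip was lowest at 1.85 ± 1.05 TPM.

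Markers of neighbouring tissue were present in unequal amounts. The 14 genes of choroid plexus and ependyma, which line the ventricles and make cerebrospinal fluid, summed to 186, 1022 and 199 CPM in control female libraries 1 to 3 and to 188, 1847 and 4701 CPM in control male libraries 1 to 3, a 25.3-fold range. Ttr stood at 13.2, 490 and 2.51 CPM in the female libraries and at 8.28, 941 and 2247 CPM in the male libraries. Control female library 2 and control male libraries 2 and 3 were thus high, and the other 3 low. Of the 14 members 12 followed the same split of libraries, among them Enpp2, Kl, Sostdc1 and Clic6. The split was read from the sums of this same list, and the share of all genes that follow it was not computed. The count therefore only describes the list. The other two, Ccdc153 and Tmem212, genes of ciliated ependymal cells, did not, and were highest in control female libraries 1 and 2. Without control male library 3 the mean of the list fell from 1357 to 688 CPM and that of Ttr from 1967 to 979 TPM. In the meninges and fibroblast list, Igf2 and Igfbp2 were likewise highest in control male library 3, at 129 and 102 TPM against 24.4 to 52.5 and 10.5 to 37.98 TPM in the other 5. The leading gene of that list, Ptgds, and Slc6a13 were lowest there, at 222 and 3.05 TPM, and Ptgds was highest in control female library 1 at 410 TPM. In the 3 libraries with low Ttr the level was 8.01 to 39.4 TPM, far below the rank that its mean of 1967 ± 2731 TPM gives.

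Cortical excitatory neuron genes summed to 187 to 326 CPM, and 8 of 14 reached 1 CPM in all 6 libraries. Slc17a7, which loads glutamate into vesicles of cortical neurons, stood at 10.3, 23.6 and 79.4 TPM in the lowest, median and highest library. Control female library 2 was highest, and the other 5 lay between 10.3 and 26.8 TPM. Neurod1, a transcription factor of such neurons, was near 0 at 0.280 ± 0.340 TPM, also highest in control female library 2, and Emx1 had a mean of 0.5 CPM. Septal, pallidal and hypothalamic genes summed to 44.7 to 63.6 CPM. Hemoglobin and other blood genes summed to 66.9 and 64.4 CPM in control female library 1 and control male library 1 and to 18.9 to 27.0 CPM in the other 4, and the near-identical copies Hba-a1 and Hba-a2, and Hbb-bs and Hbb-bt, may share reads. The part of these tissues in the values of other genes was not tested.

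**Figure D4:**
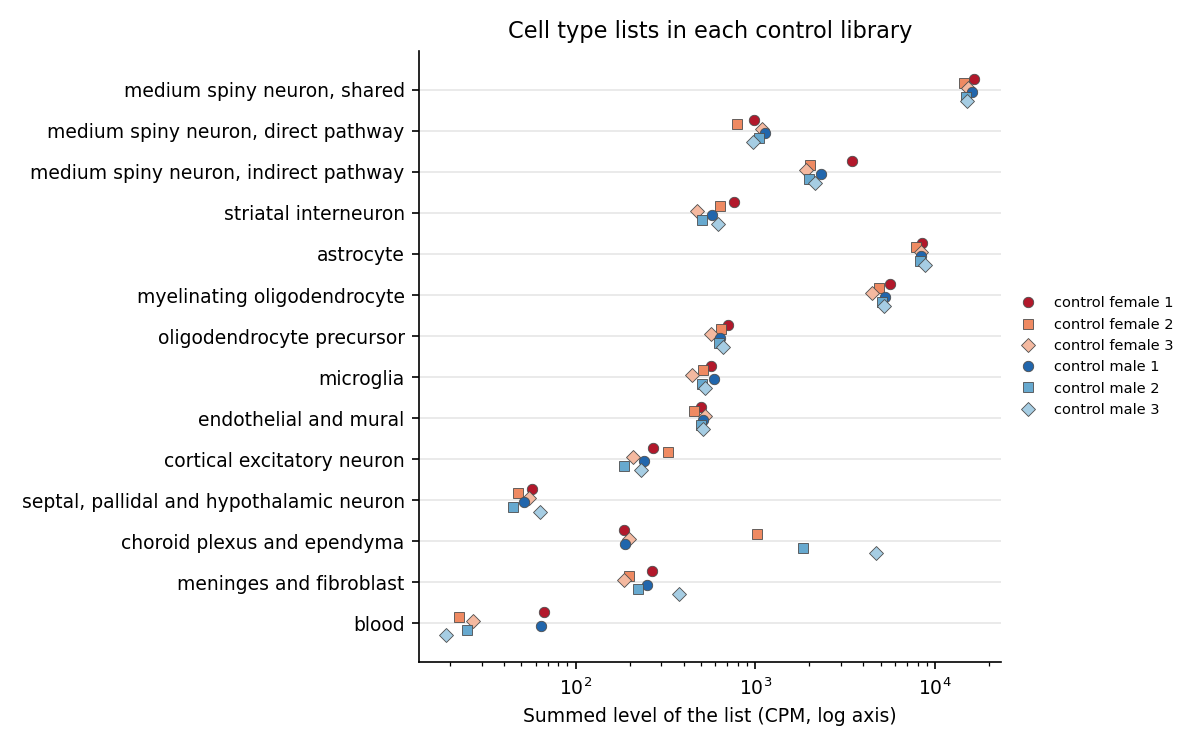
Summed level of each cell type list (horizontal axis, CPM, log axis) in each control library (points). The shared medium spiny neuron list spans 14450 to 16520 CPM, while the choroid plexus and ependyma list spans 186 to 4701 CPM.

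Immediate early genes, the rapid transcriptional response to neuronal activity, were expressed in unstressed mice. Of 23 listed, 22 reached 1 CPM in all 6 libraries, and their sum was 1023 to 1573 CPM. Egr1 led at 185, 230 and 381 TPM in the lowest, median and highest library, ahead of Jund at 136 ± 21.4 TPM, Arc at 128 ± 30.2 TPM, Nr4a1 at 103 ± 32.5 TPM and Junb at 94.2 ± 22.1 TPM. Control female library 1 was highest for Egr1, Arc and Nr4a1. The Nr4a1 level there was 169 TPM, and elsewhere 84.8 to 92.6 TPM. Removing the GC deviation moved the CV of Egr1 from 32.7% to 26.0%. Bdnf, a growth factor that the striatum receives mainly from cortical axons, was lowest at 0.590 ± 0.209 TPM.

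Hormone receptors differed widely. Thra, a thyroid hormone receptor, stood at 626 ± 86.8 TPM and the retinoid receptors Rxrg and Rarb at 181 ± 14.9 and 102 ± 10.03 TPM. The glucocorticoid receptor Nr3c1 stood at 47.7 ± 8.36 TPM and exceeded the mineralocorticoid receptor Nr3c2 by 1.02 to 1.34 times within a library. The estrogen receptor Esr1 stood at 0.830 ± 0.260 TPM, while Esr2, Esrrb and Vdr had means below 1 CPM.

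The 19 genes of the DNA methylation machinery held 1132 to 1288 CPM. The methyl-CpG binding protein genes Mbd3 and Mbd2 stood at 170 ± 34.6 and 59.0 ± 3.36 TPM, and the related reader Zbtb4 at 70.4 ± 9.86 TPM. The methyltransferases Dnmt1 and Dnmt3a stood at 42.9 ± 5.55 and 41.9 ± 3.18 TPM and did not differ beyond their spread. Dnmt3b had a mean of 0.651 CPM and Dnmt3l, a germline cofactor, had a mean of 0.187 CPM.

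The spread between libraries exceeded counting error for most genes. Among 9892 genes with a mean of at least 10 CPM the median CV was 15.1%, while counting error alone would give a median of 4.75%. The 10th and 90th percentiles were 7.83% and 26.8%. A CV below 10% was found for 2071 genes (20.9%), above 50% for 57 and above 100% for 17, and in 4933 genes (49.9%) the highest library was less than 1.5 times the lowest. The common biological CV that edgeR estimated was 19.5% with 1 mean for all 6 libraries and 19.9% with a mean for each sex. After the median deviation of each GC bin was removed, the median CV was 11.6%, against 14.99% for the same 9779 genes before.

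**Figure D5:**
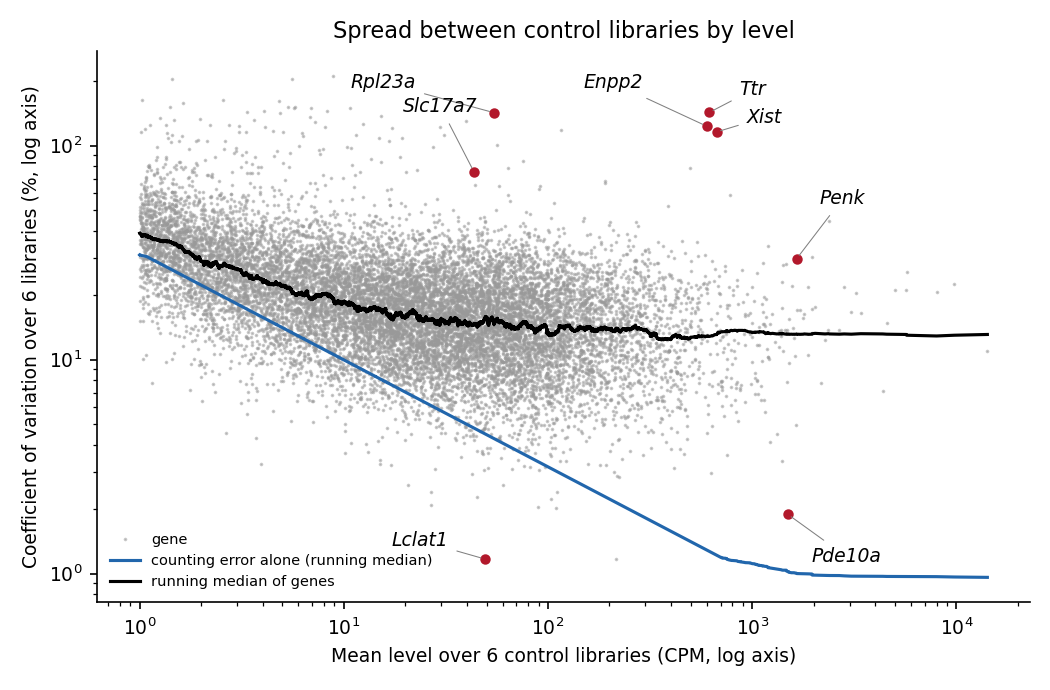
Coefficient of variation over 6 control libraries (vertical axis, percent, log axis) against mean level (horizontal axis, CPM, log axis) for genes of at least 1 CPM (grey points), with the running median of genes (black) and of counting error alone (blue). Ttr, Enpp2 and Xist lie above 100%, and Pde10a at 1.89% lies near the counting error.

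The genes of smallest CV included a main striatal enzyme. Pde10a, the phosphodiesterase enriched in medium spiny neurons, ranged only from 1451 to 1538 CPM, a CV of 1.89% against 0.816% for counting error. With the GC deviation removed its CV was 3.24%. Per length Pde10a stood at 442 ± 21.7 TPM and ranged from 412 to 466 TPM, a wider spread than in CPM. Lclat1 had the smallest CV at 1.17%, with 48.5 to 49.8 CPM, below its counting error of 4.50%. The others among the 12 smallest were Ppp1r12b, Exoc6b, Grb10, Nrarp, Kdm5b, Ikbkb, Zhx3, Arhgef26, Coil and Fam120a, with CVs of 1.18% to 2.82%. All of these except Fam120a also lay below their own counting error, for example Coil at 2.59% against 6.96%. Such CVs, picked as the smallest of many genes, do not show that these genes are steadier than others. Nrarp overlaps another gene on the opposite strand over 79.4% of its exons, and the sources used here do not state whether the counts are stranded.

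The genes of largest CV fell mainly on a few libraries. Mfrp, Ttr, F5, Kl, Enpp2, Prlr and Abca4 were each highest in control male library 3 and next highest in control male library 2, the libraries where the choroid plexus list was highest. Rpl23a, 2810433D01Rik and Lrrc17 were each highest in control female library 1, at 210, 43.2 and 388 CPM against at most 41.2, 15.2 and 114 CPM in the other 5. Rpl23a, a ribosomal protein gene with many processed copies, overlaps another gene on the opposite strand over 59.7% of its exons, so its level is uncertain. The mitochondrial tRNA gene mt-Tm was highest in control male library 1 at 101 CPM, against 5.10 to 28.9 CPM in the others. Xist, whose spread follows sex, completed the 12.

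Genes often used to normalise other measurements were not the steadiest. The 15 listed had a median CV of 21.8%, against 15.1% for all genes with at least 10 CPM. Gapdh, a glycolytic enzyme, ranged from 206 to 498 TPM with a CV of 34.0%, lowest in control female library 3 and highest in control female library 1. Actb, cytoplasmic actin, stood at 1416 ± 296 TPM with a CV of 21.8%, and Ywhaz at 1280 ± 178 TPM with a CV of 13.8%. Sdha at 468 ± 52.9 TPM had a CV of 9.75%. These CVs are of CPM and need not match the spread in TPM. With the GC deviation removed, the CV was 28.1% for Gapdh, 19.2% for Actb, 9.62% for Ywhaz and 8.74% for Sdha.

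Sex was the only labelled difference among the 6 libraries. Female and male libraries were compared with edgeR's quasi-likelihood test over 14804 genes, and 5 genes (0.0338% of those tested) passed a Benjamini-Hochberg adjusted p below 0.05. Xist, the X-linked RNA that silences an X chromosome, was higher in females (1 gene, 0.00675% of those tested), at 970, 1266 and 1777 CPM against 2.38, 1.601 and 1.09 CPM in males (log2 difference 9.64 ± 0.37 SE, adjusted p = 3.42e-06). The female and male libraries did not overlap. The other 4 (0.027%) were Y-linked and higher in males. Ddx3y, an RNA helicase gene, stood at 61.5 ± 15.1 CPM in males and 0.540 ± 0.211 CPM in females (n = 3 each), Eif2s3y, a translation factor gene, at 38.3 ± 4.32 and 0.405 ± 0.104 CPM, Kdm5d, a histone demethylase gene, at 29.5 ± 1.18 and 0.134 ± 0.232 CPM, and Uty, a related demethylase gene, at 19.0 ± 5.57 and 1.58 ± 0.453 CPM. Their adjusted p-values in edgeR's quasi-likelihood test were 1.45e-05, 3.42e-06, 0.000164 and 0.00182. Uty had 11 to 20 counts in the female libraries; it has a close X-linked relative, and sharing of reads between them was not tested.

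The other Y-linked genes listed gave no sex difference that could be tested or called. Zfy1, Zfy2 and Sry had no count in any of the 6 libraries, which allows up to 0.251 to 0.320 CPM in a single library by counting error, and Usp9y had a mean of 0.0178 CPM. Uba1y, which has a close X-linked copy, stood at 2.26 to 5.82 TPM in libraries of both sexes. Meg3, singled out after its values were seen, did not overlap between the sexes, at 5539, 5678 and 6467 CPM in females and 4215, 4008 and 3967 CPM in males, but was not called (log2 difference 0.54 ± 0.13 SE, adjusted p = 1.00 in edgeR's quasi-likelihood test). The share of all tested genes with no overlap between the sexes is not given here, so a lack of overlap alone does not set a gene apart. The libraries are separate pools, so p-values measure the spread between pools of mice.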

How the data were processed

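RNA sequencing counts of 6 control libraries were used, with no column of unknown origin. The authors deposited raw counts per Ensembl gene, whole numbers without scaling; the submitters' processing notes list Bowtie2 2.1.0, TopHat2 2.0.9, HTSeq 0.6.0 and the builds NCBIM37 and mm9, without settings or strand. Symbols, exon lengths and GC content were taken from GENCODE M21 (GRCm38), with Ensembl IDs found for 32938 of 37991 genes; the 5053 unmatched held 0.769% to 0.911% of counts. Because builds differ, no coordinates of the counted features are given; those printed are RefSeq promoter windows in GRCm38.p6. CPM used TMM factors from edgeR 4.0.16 in R 4.3.3; TPM used merged exon length. Counting error was the Poisson CV. Sexes were compared with filterByExpr and edgeR's quasi-likelihood test, adjusted by Benjamini-Hochberg, with DESeq2 1.42.0 as an alternative.

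Members, lists and tests were chosen with earlier results of these data known. The named genes were the 5 markers, the 15 nuclear genes highest by CPM and the 15 highest per length, the mitochondrial protein genes, up to 5 highest, the lowest and those under 1 CPM of each of 40 lists (750 of 755 listed genes were in the table), the 12 largest and 12 smallest CVs, and genes called between sexes; a few others (such as Drd3, Drd5, Th, Esr1, Nr3c2 and Dnmt3a) were named outside this rule after their values were seen, and some genes the rule would name are not reported here.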

Additional observations from a re-analysis of the deposited data

Results flagged for a closer look

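In 110 sets of 6 values (library measures, list sums and the genes named by level or spread), 1 library lay farther from the rest than Dixon's criterion for 6 values allows in 16 sets, or 14.5%. The criterion is set so that chance gives about 1 in 20. However, the sets include the 12 genes of largest CV, which were chosen for their spread over these same libraries. The share of 14.5% therefore cannot be compared with chance. The sets share genes, so they are not independent.

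Control female library 1 was the high value in 8 of them. Penk stood there at 2637 CPM against 1376 to 1578 CPM in the other 5, and the 2 lists that hold Penk followed, at 3436 against 1911 to 2335 CPM for indirect pathway genes and 5432 against 3209 to 3631 CPM for neuropeptide precursors. Map1a, a microtubule protein gene, stood at 2640 against 1730 to 1937 CPM, and the potassium channel list at 2368 against 2230 to 2278 CPM. Rpl23a stood at 210 against 10.6 to 41.2 CPM, Lrrc17 at 388 against 28.4 to 114 CPM and 2810433D01Rik at 43.2 against 2.88 to 15.2 CPM. The GC contrast was also highest in this library, at 0.62 on the log2 scale. With the median deviation of each GC bin removed, the CV of Penk over the 6 libraries moved from 29.6% to 24.3%. The part of the GC contrast in the values of this library was not tested.

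Control male library 3 was the high value in 5 sets: the choroid plexus and ependyma list at 4701 against 186 to 1847 CPM, Enpp2 at 2022 against 119 to 739 CPM, Kl at 140 against 8.14 to 47.5 CPM, F5 at 55.3 against 1.51 to 21.1 CPM and Mfrp at 42.6 against 0.311 to 11.3 CPM. Each of the remaining sets had a library of its own. The mitochondrial ribosomal RNA mt-Rnr2 was highest in control female library 3 at 3963 CPM, against 2215 to 2863 CPM. The tRNA mt-Tm was highest in control male library 1 at 101 CPM, and the photoreceptor, muscle and liver list in control male library 2 at 12.8 against 7.35 to 8.94 CPM.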

How the results depend on the processing

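The number of genes at 1 CPM or more in all libraries, 13718 with TMM factors, was 13650 with no factor, 13697 with DESeq2 size factors, 14744 by the mean and 14870 at 0.5 CPM. The mean number of genes that hold 50% of a library was 954 by counts, 1105 without mitochondrial genes and 458 per kilobase of merged exons (the cause was not tested). The median CV of 15.1% ranged from 12.5% without control female library 1 to 16.0% without control female library 2, and was 17.8% from a mean of 1 CPM and 13.6% from a mean of 100 CPM. None of 280 recomputed list sums moved by more than the SD between libraries. Most of these sums left out a library, which cannot move the mean by as much as that SD. Their outcome was therefore fixed beforehand and does not show that the sums are robust. The sums with no TMM factor also had little room to move, as the factors lay between 0.951 and 1.037. For lists with a large SD, such as the indirect pathway genes at 2309 ± 572 CPM, that outcome was fixed as well. The SD is also large for the choroid plexus and ependyma list, whose mean fell from 1357 to 688 CPM without control male library 3. The length of the longest transcript moved 14 of 28 gene levels by more than their SD. Part of this is a shift shared by genes, because TPM are scaled to a fixed total. With that length mt-Co1 fell from 34780 to 27890 TPM, and Drd2 fell in the same proportion, from 395 to 316 TPM. The count of 14 therefore does not give the number of genes whose own length mattered. The 5 sex calls had the same counts by direction, 1 and 4, under DESeq2, other size factors, no filter, the GC contrast as covariate and without each library. Replicate numbers did not clearly pair the sexes (correlations of deviations 0.43, 0.29 and 0.02 for equal numbers, and control female library 3 correlated best with another number), and the fit with the replicate block also gave 5 calls. Depth limits genes below about 0.3 CPM.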

Other observations

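Genes of energy metabolism and protein synthesis, not described above, were abundant in every control library. The 95 nuclear subunits of oxidative phosphorylation summed to 8366 to 10490 CPM, led per length by Cox8a at 1433 ± 305 TPM and Cox6a1 at 1045 ± 206 TPM (n = 6), and the germline or muscle forms Cox8b, Cox7a1, Cox7b2 and Cox8c had means below 1 CPM. The 19 glycolysis genes summed to 6416 to 9375 CPM, with Aldoa at 1455 ± 356 TPM and Ldhb at 1269 ± 108 TPM. The 79 cytosolic ribosomal protein genes summed to 8730 CPM in control male library 1 and to 5675 to 7310 CPM in the other 5. Their median CV was 25.7%, against 15.1% for all genes with at least 10 CPM, and copies elsewhere in the genome may share reads with them.

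The 22 voltage-gated potassium channel genes varied least of the lists, with sums of 2230 to 2368 CPM, a 1.06-fold range, and a median CV of 9.37%. Kcna1 stood at 256 ± 24.8 TPM and Kcnd2, an A-type channel gene, at 154 ± 15.7 TPM. The sodium and potassium pump genes summed to 5465 to 7293 CPM. The 10 listed genes of the germline and early embryo summed to 7.56 to 13.2 CPM, of which Dazl held 55.9%, at 5.98 ± 1.29 TPM.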
